A study of Homo sapiens with 12 samples.

Results

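The genes examined here encode 8 factors of the integrated stress response: ATF4, ATF3, ATF5, DDIT3 (which encodes CHOP), CEBPB, CEBPG, TRIB3 and NUPR1. They were chosen by symbol, and all 8 were found among the 18668 genes of the deposited table and passed the filter on low counts. Their NCBI Gene identifiers in that table are 468 for ATF4, 467 for ATF3, 22809 for ATF5, 1649 for DDIT3, 1051 for CEBPB, 1054 for CEBPG, 57761 for TRIB3 and 26471 for NUPR1. RNA sequencing had been done on 22Rv1, a human prostate cancer line that grows independently of androgen and carries the genotype label WT, kept in RPMI-1640 with serum. Treatment lasted 24 h and was with vehicle, the androgen receptor antagonist enzalutamide, an autophagy-activating ligand or an androgen receptor-targeting degrader. Each of these 4 groups had 3 libraries, described as biologically independent, and the labels used here gave no doses. The question for these genes was whether any compound altered their transcripts, and whether the compounds differed from one another.

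In the integrated stress response, stress-sensing kinases phosphorylate the translation initiation factor eIF2, which lowers protein synthesis while ATF4 protein is made more efficiently from its existing mRNA. ATF4 is a basic leucine zipper (bZIP) transcription factor that binds composite C/EBP-ATF elements, often as a dimer with C/EBPβ or C/EBPγ, and switches on genes of amino acid supply, redox balance and cell fate. Among its targets are the other transcription factors CHOP, ATF3 and ATF5, and TRIB3, a pseudokinase that feeds back on ATF4 and CHOP. ATF4 and ATF5 are themselves controlled to a large extent at translation, which transcript counts do not measure.

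Counted reads per library ran from 55547270 to 77208794. Replicates of a group differed by more than counting error (chi-square per degree of freedom 5.23 to 21.3), so no 2 libraries were counted as one. All 10 luminal prostate markers looked up were listed, with a summed level of 1038 to 1114 FPKM (fragments per kilobase of gene, scaled to depth) in vehicle libraries, 874 to 943 with enzalutamide, 980 to 1061 with the ligand and 766 to 822 with the degrader. Of 12 stromal, endothelial and immune markers, 5 were listed, with sums of 8.80 to 9.23, 8.17 to 9.39, 7.96 to 9.10 and 7.30 to 8.23 FPKM in the same order. The 5 were COL1A1, COL3A1, DCN, LUM and CD68. The endothelial genes PECAM1, VWF and CDH5 and the immune genes PTPRC and CD3E were not among the listed genes, each of which has at least 1 read in every library. With the degrader, edgeR called 6 of the 10 luminal markers lower against vehicle and 0 higher. Of all genes tested, 16.4% were called in each direction. At an unadjusted p under 0.05 by edgeR 1 marker was higher, and DESeq2 and limma-voom called 0 higher. The part of the fall in luminal markers in the results below was not tested.

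Promoter sequence from RefSeq (GRCh38.p14, windows from 250 bases before to 50 after each annotated start) was matched by symbol for 7 of the 8 genes, all but NUPR1. The C/EBP-ATF response element, searched as TGATGNAA on both strands, occurred in 1 window each of ATF3 and CEBPG. It was present in 4.46% of 27305 genes with a window, and in 7 of 28 ATF4 and CHOP target genes with one (ASNS, CHAC1, AARS1, NARS1, SLC3A2, SLC7A1 and JDP2). Among other lists 2 of 30 bZIP genes held it (CREB3L2 and JDP2). So did 1 of 20 genes of the ATF6 and IRE1-XBP1 arms (HERPUD1) and 1 of 10 eIF2 genes (PPP1R15B). The cAMP response element variant TGACATCA, which overlaps none of the other matches shown, was found in ATF3 alone of the genes examined and in 3.18% of all genes. In DDIT3 the letters CCAAT and CCAC were present 9 bases apart, an endoplasmic reticulum stress element without its last base, which 0.381% of all genes held. The full element, with a G after CCAC, was not in the windows of these genes and was held by 0.0916% of all genes. The palindromic cAMP response element TGACGTCA was in 0 of the 7 and in 2.25% of all genes, and the paired C/EBP letters TTGCNNAA were in ATF3 and ATF5 and in 12.7% of all genes. The 3 stretches are shown for the motifs of the pathway that they carry. ATF4, CEBPB and TRIB3, whose transcripts also rose with the degrader, held none of the searched motifs in their windows. Capitals mark the matches, each sequence runs 5′ to 3′ on the gene's strand, and none of the stretches overlapped an annotated exon.
ATF3, chr1:212565207-212565306, plus strand: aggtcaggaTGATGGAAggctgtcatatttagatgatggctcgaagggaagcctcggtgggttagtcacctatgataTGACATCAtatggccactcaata
CEBPG, chr19:33374043-33374102, plus strand: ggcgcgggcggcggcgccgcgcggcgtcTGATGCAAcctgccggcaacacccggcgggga
DDIT3, chr12:57520575-57520634, minus strand: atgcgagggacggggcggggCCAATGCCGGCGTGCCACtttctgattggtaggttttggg
A match describes the letters only, since binding was not measured.

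In vehicle-treated cells the levels per transcript length followed a wide order. ATF4 was by far the most abundant, at 220 ± 9.27 FPKM (mean ± SD, n = 3, as for all levels below). DDIT3 at 33.9 ± 1.34, TRIB3 at 31.5 ± 1.80 and ATF5 at 30.7 ± 0.956 FPKM came next; the libraries of DDIT3 and TRIB3 overlapped, as did those of TRIB3 and ATF5. CEBPG followed at 20.8 ± 0.529, NUPR1 at 17.4 ± 1.03, ATF3 at 12.1 ± 0.830 and CEBPB at 8.78 ± 1.30 FPKM, with no overlap between neighbours. With the degrader, ATF4 stood at 386 ± 21.0, DDIT3 at 108 ± 10.7 and TRIB3 at 84.7 ± 6.84 FPKM. NUPR1 at 36.3 ± 3.54 and CEBPG at 35.9 ± 0.412 FPKM overlapped. ATF5 then lay below both at 29.1 ± 0.498 FPKM, above ATF3 at 23.4 ± 2.02 and CEBPB at 17.4 ± 2.33 FPKM.

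With the degrader 7 of the 8 transcripts rose against vehicle, and ATF5 was the exception. By edgeR's quasi-likelihood test (Benjamini-Hochberg adjusted p under 0.05), 32.7% of the 17702 genes tested were called in this comparison and 16.4% were called higher. Fold changes ran from 1.72 for CEBPG to 3.12 for DDIT3. The median log2 fold change of the 8 genes was 0.95, against 0.006 over all genes tested. These comparisons against vehicle share the same 3 vehicle libraries. For the same 7 genes, every degrader library lay above every vehicle library, an arrangement seen in 23.1% of genes. In bulk RNA, a higher level per cell and a larger share of cells that carry a transcript cannot be told apart.

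**Figure D1:**
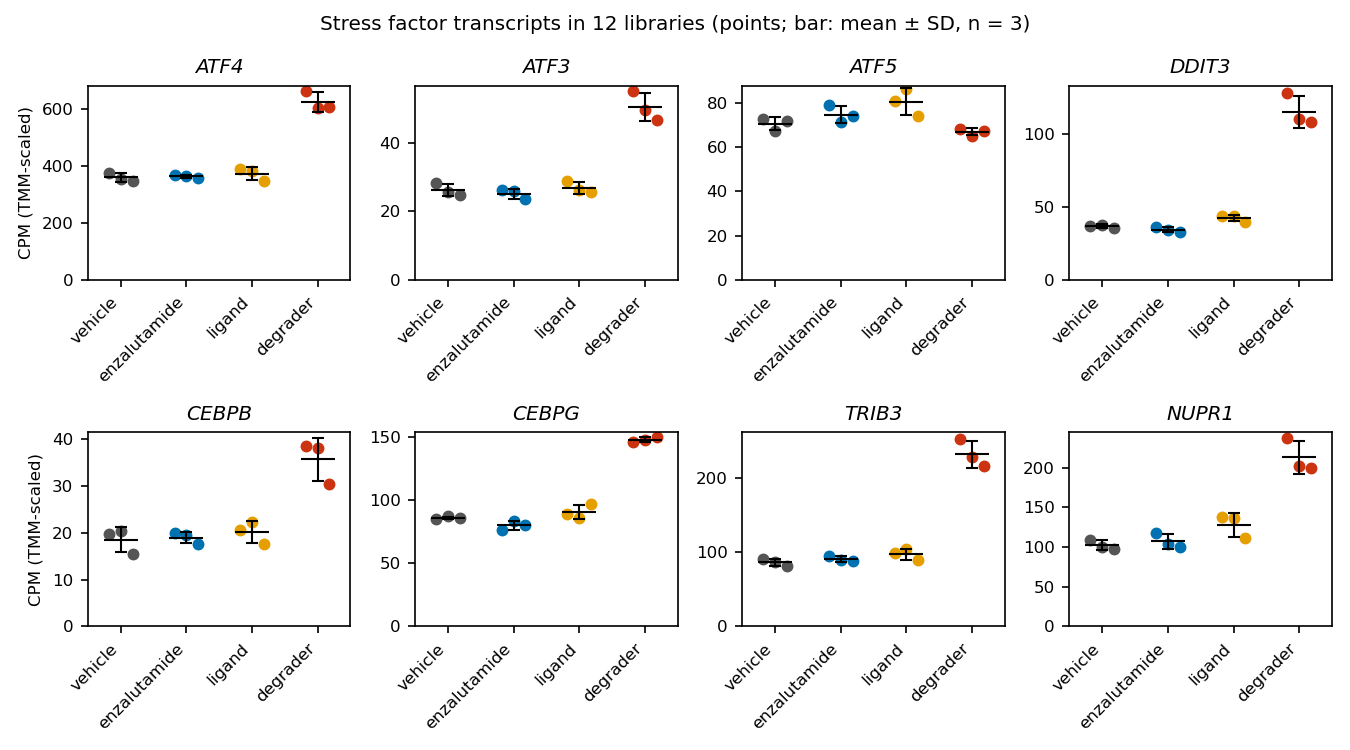
Normalised counts in CPM (vertical axes from 0, one panel per gene) in the 3 libraries of each group, with points for libraries in the order of replicate 1, 2 and 3 and bars for mean ± SD. The degrader libraries stand above all others in 7 panels, whereas in the ATF5 panel they lie at 65.3 to 68.3 CPM, overlapping vehicle.

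ATF4, the central factor, had 376, 355 and 348 CPM (counts-per-million, TMM-scaled) in the vehicle libraries and 664, 603 and 605 CPM with the degrader. The groups were far apart, and the mean went from 360 ± 14.9 CPM up to 624 ± 34.6 CPM, a log2 fold change of 0.79 (SE 0.05, adjusted p = 9.78e-09). The processed ATF4 pseudogenes ATF4P3 and ATF4P4, which could share reads with it, were counted separately at 1.19 ± 0.0911 and 0.385 ± 0.0647 CPM in vehicle, against 360 CPM for ATF4 itself. With the degrader their log2 fold changes were 0.75 for ATF4P3 (edgeR adjusted p = 0.00183) and 0.50 for ATF4P4 (0.235). The part of shared reads in these values was not tested.

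DDIT3 encodes CHOP, a C/EBP family member that dimerises with ATF4 and C/EBP proteins and is linked to cell death under prolonged stress. Its vehicle libraries held 37.2, 37.9 and 35.7 CPM and its degrader libraries 128, 110 and 108 CPM. This was the largest change of the group, 1.64 on the log2 scale (SE 0.07, adjusted p = 2.52e-11), and ranked 59 of 17702 genes by size of rise. DDIT3 overlaps MARS1, a tRNA synthetase gene, and the microRNA gene MIR616 on the reference annotation, and whether counting used strand was not given in the sources used here. MARS1 rose too, from 173 ± 5.06 to 255 ± 8.78 CPM (log2 fold change 0.56, adjusted p = 1.10e-07), a smaller change than that of DDIT3. MIR616 was at 0.152 ± 0.0159 and 0.463 ± 0.0623 CPM (log2 fold change 1.60, edgeR adjusted p = 2.35e-04). The part of shared reads in the values of these overlapping genes was not tested.

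TRIB3, the pseudokinase of the feedback loop, had 90.6, 86.9 and 81.6 CPM with vehicle and 253, 228 and 216 CPM with the degrader. Every degrader library thus stood far above the vehicle range, and the log2 fold change was 1.43 (SE 0.07, adjusted p = 1.30e-10). NUPR1, a small chromatin-associated stress protein, had 109, 99.4 and 97.8 CPM and then 237, 202 and 199 CPM. Its log2 fold change was 1.06 (SE 0.09, adjusted p = 4.74e-07).

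The remaining risers were bZIP factors. ATF3, an ATF family member induced by many stresses, had 28.1, 25.7 and 24.6 CPM with vehicle against 54.9, 49.5 and 46.7 CPM with the degrader (0.95 on the log2 scale, SE 0.07, adjusted p = 5.81e-08). CEBPG, which encodes C/EBPγ, a dimer partner of ATF4, was the tightest: its vehicle libraries lay at 85.0, 87.2 and 85.6 CPM and its degrader libraries at 146, 148 and 150 CPM (0.78, SE 0.05, adjusted p = 6.05e-09). CEBPB, which encodes C/EBPβ, varied most between replicates, with 19.8, 20.3 and 15.4 CPM in vehicle and 38.5, 38.1 and 30.5 CPM with the degrader. It still rose, by a log2 fold change of 0.95 (SE 0.11, adjusted p = 1.16e-05), with no overlap between groups. The antisense gene CEBPB-AS1, whose reads might be mixed with those of CEBPB, was at 1.27 ± 0.241 CPM in vehicle and 1.85 ± 0.186 CPM with the degrader. Its log2 fold change was 0.56 (edgeR adjusted p = 0.0346). The call for CEBPB-AS1 was lost without vehicle replicate 1 (0.137) or 2 (0.100) and without degrader replicate 1 (0.118) or 2 (0.0614).

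ATF5, an ATF4 target best known for the mitochondrial stress response, did not follow the others. Its libraries held 72.9, 67.3 and 71.9 CPM with vehicle and 68.3, 65.3 and 67.3 CPM with the degrader, and the groups overlapped. The log2 fold change was -0.08 (95% confidence interval -0.20 to 0.04, adjusted p = 0.328), so a rise above 1.03-fold lies outside the interval. ATF5 overlaps NUP62, a nucleoporin gene, on the reference annotation. NUP62 fell from 155 ± 4.07 to 129 ± 3.92 CPM (log2 fold change -0.26, adjusted p = 4.00e-04); the part of shared reads in the ATF5 value was not tested.

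**Figure D2:**
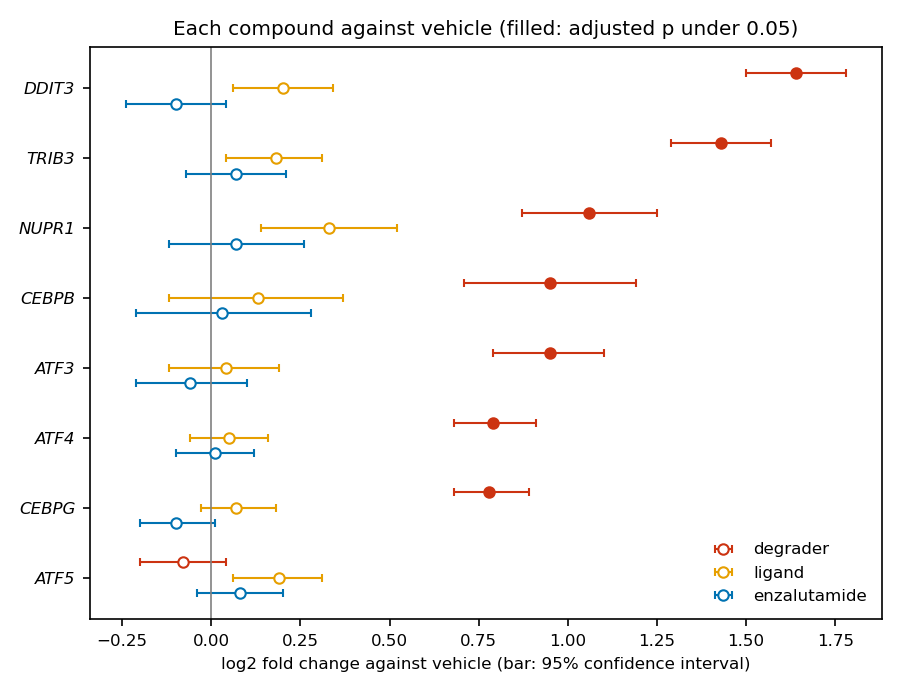
Log2 fold change of each gene against vehicle (horizontal axis) with its 95% confidence interval, for the degrader, the ligand and enzalutamide; filled points passed an adjusted p of 0.05. Degrader values reach from -0.08 for ATF5 to 1.64 for DDIT3, while those of the other compounds stay between -0.10 and 0.33 and none is filled.

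Enzalutamide against vehicle left all 8 genes uncalled by edgeR. The tools DESeq2 and limma-voom called 0 as well, and 0 had an unadjusted p under 0.05. In this comparison 1.44% of genes were called. Values ran from -0.10 for DDIT3 and CEBPG to 0.08 for ATF5 on the log2 scale. For DDIT3 the libraries held 36.0, 34.2 and 32.9 CPM, and the interval of the change was -0.24 to 0.04. ATF4 was at 363 ± 5.33 CPM, with an interval of -0.10 to 0.12. CEBPG was the one gene whose enzalutamide libraries, at 76.7, 83.7 and 80.7 CPM, all lay below the vehicle libraries, an arrangement that 8.19% of genes showed (adjusted p = 0.565).

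The ligand against vehicle likewise gave 0 calls among the 8 genes by edgeR, where 0.237% of all genes were called. At an unadjusted p under 0.05 by edgeR there were 4, and DESeq2 called 1 and limma-voom 0. By p-value these 4 ranked 152 (NUPR1), 256 (ATF5), 308 (DDIT3) and 498 (TRIB3) of 17702 genes. The share of all genes at an unadjusted p under 0.05 was not counted, here or for the lists. The gene DESeq2 called was NUPR1, at 138, 136 and 111 CPM with the ligand, all above vehicle (log2 fold change 0.33, edgeR adjusted p = 0.263, DESeq2 adjusted p = 0.0385). Without ligand replicate 3 its edgeR adjusted p was 0.0125 and its log2 fold change 0.43. DDIT3 was at 43.5, 43.9 and 39.9 CPM (0.20, interval 0.06 to 0.34, adjusted p = 0.414) and ATF5 at 80.8, 86.4 and 74.2 CPM (0.19, interval 0.06 to 0.31, adjusted p = 0.386), and for both every ligand library lay above every vehicle library. That arrangement held for 5.61% of all genes. TRIB3 was at 98.4, 104 and 89.9 CPM (0.18, adjusted p = 0.548).

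Set directly against the other compounds, the degrader again gave higher levels of the same 7 genes. Against enzalutamide, where 16.3% of genes were higher and 16.1% lower, the log2 differences ran from 0.78 for ATF4 to 1.74 for DDIT3 (interval 1.60 to 1.88). Against the ligand, where 14.3% were higher and 14.2% lower, they ran from 0.71 for CEBPG to 1.44 for DDIT3 (interval 1.30 to 1.58). ATF5 went the other way. It was lower with the degrader than with the ligand by 0.27 on the log2 scale, at 67.0 ± 1.55 against 80.5 ± 6.13 CPM (log2 difference -0.27, interval -0.39 to -0.14, edgeR adjusted p = 0.00279). Against enzalutamide, at 74.8 ± 3.74 CPM, the ATF5 difference was -0.16 (interval -0.28 to -0.04, adjusted p = 0.0464), a call not made by limma-voom on all libraries (adjusted p = 0.0503) and lost in edgeR when single libraries were left out: its adjusted p became 0.0534 (vehicle replicate 2) and 0.0563 (vehicle replicate 3), 0.191 and 0.0872 without enzalutamide replicates 1 and 3, 0.0585 without ligand replicate 1, and 0.0620, 0.149 and 0.0883 without degrader replicates 1, 2 and 3.

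Ligand and enzalutamide differed in DDIT3, which was higher with the ligand at 42.5 ± 2.19 against 34.4 ± 1.57 CPM (log2 difference 0.31, interval 0.17 to 0.45, adjusted p = 0.0182), where 1.37% of all genes were higher. This call was lost without enzalutamide replicates 2 and 3 (0.0716 and 0.109) and without ligand replicates 1 and 2 (0.0975 and 0.0787). For the other 7 genes the difference did not pass by edgeR; its interval was -0.07 to 0.15 for ATF4 and -0.03 to 0.24 for TRIB3. CEBPG had a log2 difference of 0.17 (interval 0.06 to 0.28, edgeR adjusted p = 0.126) that DESeq2 called (adjusted p = 0.0383). NUPR1 was at 0.26 (interval 0.07 to 0.45, edgeR adjusted p = 0.247), and at 0.36 without ligand replicate 3, where it passed (0.0159). Doses were not given, so these contrasts set treatments as applied side by side.

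The degrader's log2 change was also compared with the sum of the changes under enzalutamide and the ligand, by a contrast over all 4 groups. It exceeded that sum for 7 genes, from 0.66 for NUPR1 (adjusted p = 0.00266) to 1.54 for DDIT3 (2.35e-08), and fell short of it for ATF5 (-0.35, adjusted p = 0.00980), where 7.61% of all genes were higher and 7.61% lower than the sum.

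**Figure D3:**
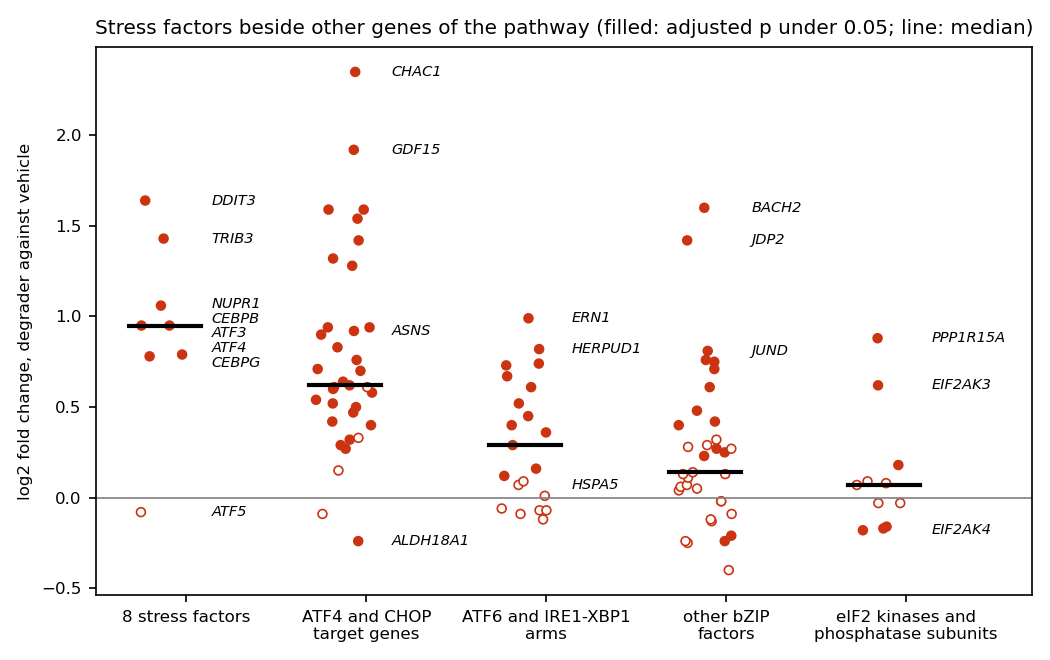
Log2 fold change of degrader against vehicle (vertical axis) for the 8 stress factors and for 4 lists of related genes, 1 point per gene, filled where the adjusted p was under 0.05, with a line at each median. The median is 0.95 for the stress factors, 0.62 for ATF4 and CHOP targets, 0.29 for the ATF6 and IRE1-XBP1 arms, 0.14 for other bZIP factors and 0.07 for eIF2 kinases and phosphatase subunits.

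Downstream of these factors, 30 of 35 tested ATF4 and CHOP target genes rose with the degrader and 1 fell, against 16.4% of all genes in each direction (list median 0.62). CHAC1, a glutathione-degrading enzyme gene, rose from 3.21 ± 0.154 to 16.4 ± 0.620 CPM (log2 fold change 2.35), GDF15, a secreted stress cytokine gene, by 1.92, and SLC7A11, the cystine transporter gene, by 1.59. SESN2, an mTORC1 inhibitor gene, rose by 1.54 and ASNS, the asparagine synthetase gene, from 183 ± 10.8 to 347 ± 16.5 CPM (0.92). The member that fell was ALDH18A1, an enzyme gene of proline synthesis (-0.24, adjusted p = 1.19e-04). DDIT4, the REDD1 gene, had a log2 fold change of 0.61 that did not pass (interval -0.25 to 1.46, adjusted p = 0.258), with vehicle libraries spread at 65.6 ± 25.0 CPM. With enzalutamide 0 of the 35 were higher at an unadjusted p under 0.05 by any of edgeR, DESeq2 and limma-voom, and TNFRSF10B, the DR5 death receptor gene, fell by 0.21 (adjusted p = 0.0301; 0.0550 to 0.153 without any of 6 single libraries). At an unadjusted p under 0.05, 5 of the 35 were lower by edgeR, and DESeq2 also called ERO1A lower. With the ligand edgeR and limma-voom called 0 of the 35 and DESeq2 called PHGDH higher. At an unadjusted p under 0.05 by edgeR there were 11, of which 8 were higher and 3 lower. The share of all genes at that p was not counted for either compound, so these counts have no background to be read against. PHGDH, an enzyme gene of serine synthesis, is named for the DESeq2 call after its value was seen.

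Upstream, 2 of the 4 eIF2 kinase transcripts passed the test, in opposite directions. EIF2AK3, which encodes PERK, the kinase of the endoplasmic reticulum, rose from 23.8 ± 1.70 to 36.5 ± 0.314 CPM with the degrader (0.62, adjusted p = 5.16e-06). EIF2AK4, which encodes the amino acid sensor GCN2, fell from 90.8 ± 1.95 to 80.1 ± 1.68 CPM (-0.18, adjusted p = 0.00289). The other kinase genes, added after their values were seen, did not pass: EIF2AK1 was at 0.07 (adjusted p = 0.155) and EIF2AK2 at -0.03 (0.804). PPP1R15A, the stress-induced phosphatase subunit GADD34 that restores eIF2, rose from 33.8 ± 3.49 to 62.2 ± 7.58 CPM (0.88, adjusted p = 1.34e-06). Of the 11 genes of this list 3 rose and 3 fell (median 0.07), beside 16.4% of all genes in each direction; DELE1, a mitochondrial stress relay gene, rose by 0.18, and EIF2S1, the eIF2 alpha subunit gene, and GCN1, a GCN2 activator gene, fell by 0.17 and 0.16. GCN1 lost its call with vehicle replicate 2 (0.0812) or 3 (0.101) left out, and with degrader replicate 2 (0.0859) or 3 (0.0767) left out.

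The other arms of the unfolded protein response, run by ATF6 and by IRE1 with XBP1, had 13 of 21 genes higher and 0 lower with the degrader (median 0.29). Of all genes tested, 16.4% were called in each direction. At an unadjusted p under 0.05, 1 gene was lower by edgeR; DESeq2 and limma-voom called 0 lower. ERN1, which encodes IRE1, rose by 0.99, HERPUD1, of endoplasmic reticulum degradation, by 0.82, and DNAJB9, a co-chaperone gene, by 0.74. The bZIP factor genes ATF6 and XBP1 rose by 0.61 and 0.40. HSPA5, which encodes the chaperone BiP, was at 795 ± 23.9 CPM with vehicle and 835 ± 11.4 CPM with the degrader (0.07, interval -0.02 to 0.16, adjusted p = 0.233). The 8 genes not called, HSPA5, HSP90B1, PDIA4, DNAJB11, SDF2L1, MANF, CRELD2 and CALR, lay between -0.12 and 0.09. With enzalutamide HSP90B1, the GRP94 chaperone gene, fell by 0.20 (adjusted p = 0.0264; 0.0612 to 0.145 without any of 5 single libraries). DESeq2 also called PDIA4 lower, and 7 of the 21 were lower at an unadjusted p under 0.05 by edgeR. With the ligand edgeR and limma-voom called 0 of 21 and DESeq2 called HSP90B1 lower. At an unadjusted p under 0.05 by edgeR there were 8, of which 1 was higher and 7 lower. Here too the share of all genes at that p was not counted, so an excess in this list is not shown.

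Among 35 other bZIP factor genes, 13 rose with the degrader and 2 fell (median 0.14), beside 16.4% of all genes in each direction. ATF6 and XBP1 are also in this list. BACH2, a repressor gene, rose from 0.271 ± 0.142 to 0.812 ± 0.0839 CPM (1.60), JDP2, a bZIP repressor gene that the target list also holds, from 2.43 ± 0.227 to 6.50 ± 0.464 CPM (1.42), and JUND, an AP-1 subunit gene, by 0.81. The falls were CREB3L4 (-0.24) and MAFK (-0.21), the latter at an adjusted p of 0.0517 without degrader replicate 3. The AP-1 genes JUN and FOS were at 0.14 (adjusted p = 0.140) and -0.13 (0.482), and CEBPA at 0.29 (0.0518). JUN passed without vehicle replicate 1 or degrader replicate 3 (0.0338, 0.0372). CEBPA passed by DESeq2 (0.0438), with library totals alone as scaling (0.0348), and without degrader replicate 3 (0.0159) or ligand replicate 3 (0.0354).

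The genes with the most similar profiles were found by the root mean square difference of centred log2 CPM over the 12 libraries, among 11738 other genes with a mean of at least 5 CPM. For DDIT3 these were BEX2 (0.12), SESN2 (0.12) and SLC6A9 (0.14), and for TRIB3 BEX2 (0.06), SESN2 (0.07) and GTPBP2 (0.07). ATF4 was nearest to SARS1 (0.04), NFE2L1 (0.04) and TSC22D3 (0.05), and CEBPG to XPOT (0.04), MAP1LC3B (0.05) and CYP51A1 (0.05). ATF3 lay beside PPP1R15A, ASNS and SLC3A2 (0.07 each), CEBPB beside PRR15 (0.10), AKNA (0.11) and SLC3A2 (0.11), and NUPR1 beside SQSTM1 (0.06), RENBP (0.07) and PHGDH (0.08). None of the 8 stress factors was among the 3 nearest genes of these 7, and ATF5, which was not called, was not searched. The distance covered the degrader libraries, so a degrader change of similar size to that of the factor follows from the search itself. On the log2 scale the neighbours' changes were 0.80, 0.76 and 0.77 beside ATF4 (0.79), and 1.55, 1.54 and 1.59 beside DDIT3 (1.64). With the degrader 2898 genes were called higher, and shared control of neighbours was not tested.

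In the authors' deposited table the signed fold change for degrader against vehicle was 3.1 for DDIT3, 2.68 for TRIB3, 2.07 for NUPR1, 1.73 for ATF4 and -1.06 for ATF5. The same deposited table gave an adjusted p of 0.0385 for NUPR1 with the ligand and 0.318 for ATF5 with the degrader. The value for NUPR1 equals the DESeq2 value above. All of these deposited values come from the same libraries and are not a second result.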

How the data were processed

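Polyadenylated RNA of 12 libraries was prepared with a stranded mRNA kit, per the labels' protocols. HISAT2, StringTie and the build GRCh37 are named, with no roles or order, in the submitters' processing notes; versions are not given in the sources used here. The authors deposited, per the file headers, whole read counts and FPKM for 18668 genes, plus a signed fold score and an adjusted p-value for each compound against vehicle; the test behind them is not given in the sources used here. Of the per-sample columns, 24 others were not used. Counts were filtered with filterByExpr (minimum 10, total 15), which kept 17702 genes and left out 966, and were TMM-scaled (factors 0.987 to 1.016). An edgeR 4.0.16 quasi-likelihood model (R 4.3.3) with group as term was fitted to all 12 libraries (8 residual degrees of freedom), and 7 contrasts were tested with Benjamini-Hochberg adjustment over all genes. Standard errors and confidence intervals were derived from each log2 fold change and the F statistic of its test, with a t quantile for the interval. FPKM served to compare levels between genes. DESeq2 1.42.0, limma-voom (limma 3.58.1), other scaling, no filter, fits to the compared groups alone, a replicate block and each library left out were alternatives. The fits were tested on simulated data. Depth was 55547270 to 77208794 counted reads. Precision is limited by replicate spread, and for genes with few reads, such as MIR616, by counting error too. The p-values set a difference between groups against the spread of libraries within groups, estimated over all 12 libraries. The genes, the 6 lists and the tests were chosen with earlier results of these data known. Genes named were the 8 factors, fixed genes of the lists, and up to 3 called list members with the largest rise and fall, with the 3 nearest profiles of each called factor; markers served as a check of cell type. ERO1A, PDIA4 and PHGDH, called by DESeq2 alone, were named after their values were seen. So were the genes of the ATF6 and IRE1-XBP1 arms not called with the degrader, other than HSPA5 and HSP90B1. The lists held 125 different symbols.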

Additional observations from a re-analysis of the deposited data

How the results depend on the processing

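Counts of all genes called moved most in the comparisons with few calls. For enzalutamide against vehicle (255 genes) the count was 388 by DESeq2 and 553 with replicate number as a block. For the ligand against vehicle (42 genes) it was 124 by DESeq2, 25 in a fit to the compared groups alone, 191 with the replicate block and 21 to 77 with 1 library left out. For ligand against enzalutamide (361 genes) it was 613 with the replicate block and 229 to 355 with 1 library left out. The contrast of the degrader with the sum of the other compounds gave 2694 genes, and 4463 with the replicate block. Among the 8 stress factors, the ligand against vehicle gave 1 call by DESeq2, 1 with the replicate block and 0 to 1 with 1 library left out. Ligand against enzalutamide gave 2 by DESeq2, 3 with the replicate block and 0 to 2 with 1 library left out. With the block, NUPR1 passed with the ligand against vehicle (adjusted p = 5.25e-04) and against enzalutamide (0.00156), as did CEBPG in the latter (0.0318). In degrader against vehicle the block also called DDIT4 (log2 0.67, adjusted p = 0.00926), JUN (0.0247) and CEBPA (0.0124). The 7 genes raised by the degrader were called under all 19 alternatives, with log2 values of 1.56 to 1.68 for DDIT3 and 0.83 to 1.05 for CEBPB. Signs changed in values near 0 that were not called: with 1 library left out, enzalutamide values ran from -0.01 to 0.05 for ATF4, -0.08 to 0.10 for CEBPB and -0.01 to 0.12 for NUPR1, ligand values from -0.01 to 0.09 for ATF3, and degrader values from -0.30 to 0.00 for FOS. With enzalutamide, ATF4 was -0.01 and CEBPB -0.08 without vehicle replicate 3, and CEBPB was 0.00 and NUPR1 -0.01 without enzalutamide replicate 1. With the ligand, ATF3 was 0.00 without vehicle replicate 3 and -0.01 without ligand replicate 1, and with the degrader FOS was 0.00 without degrader replicate 3. The cause was not tested. With a group left at 2 libraries the spread came from all groups together. Same-numbered libraries of different groups had correlations of their deviations of -0.03 to 0.21 over 18 pairs. For libraries of different number these were -0.17 to 0.07 over 36 pairs. In 28 of 36 cases a library correlated best with its own number among the 3 of another group. This is a hint from the data only, and the number does not establish a pairing. The main fit had no term for it. ATF3, DDIT3, CEBPB, TRIB3 and NUPR1 were lowest in replicate 3 in all 4 groups, and ATF4, ATF3 and NUPR1 were highest in replicate 1 in all 4.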
